A study of Mus musculus with 20 samples.

Results

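Livers of 5 male ob/ob mice given metformin in their drinking water were compared with livers of 5 male ob/ob mice kept in filtered air, with no particle exposure named for either group. The comparison was chosen from the sample labels, and takes 10 of the 20 arrays of the study and every non-control gene whose signal lay above background, 10684 genes in all. The ob/ob mouse lacks the appetite hormone leptin, eats in excess and becomes obese, insulin resistant and fatty in the liver, and all 20 mice carried this mutation. The other 10 mice breathed PM2.5, which is fine airborne particulate matter, for 6 hours a day, 5 of them without and 5 with metformin. All mice were killed after 2 weeks. The metformin dose was set by body weight and its value is not given, the label of the metformin group does not name its air, and food was freely available. Ages, hours of killing, litters and batches are not given, and the labels do not say how many experiments the 5 mice of a group came from. Values are log2 signals, with 1 array for each mouse, so that a difference of 1 is a 2-fold change, and the p-values measure the spread between these mice.

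Metformin is a drug for type 2 diabetes that is taken up by hepatocytes, inhibits respiratory complex I and activates AMPK, the kinase that senses low cellular energy. AMPK phosphorylates and inhibits acetyl-CoA carboxylase, the enzyme that commits acetyl-CoA to fatty acids. In the obese liver the same pathway is driven at the level of transcription by insulin, through SREBP1c, and by glucose, through ChREBP. Cholesterol synthesis is driven by SREBP2 when sterols in the endoplasmic reticulum are low. In fasting the liver turns to fatty acid oxidation and glucose production under PPAR-alpha, glucagon and glucocorticoids.

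Arrays of 1 group were alike. Pairwise correlations across genes were 0.9886 to 0.9937 in filtered air and 0.9834 to 0.9920 with metformin. Of the 9 tested hepatocyte markers 0 passed, 7 had values above 0 and 2 below. Most were near the top of the signal range in both groups, where an array can lose range. Alb (albumin) was at 18.90 ± 0.03 in filtered air and 18.94 ± 0.07 with metformin (SD, n = 5). Hnf4a was dimmer, at 12.69 ± 0.18 and 13.09 ± 0.24 (SD). Cyp2e1 was higher in every metformin mouse than in any filtered-air mouse and did not pass (adjusted p = 0.0725, limma). The tissue is whole liver, in which fewer cells of a type and less RNA per cell cannot be told apart. Some probe sets carry identifiers that mark them as negative controls. What these negative controls match was not checked, and their 95th percentile, averaged over the 20 arrays, was 8.36. Their median signal was slightly higher in all 5 metformin arrays (4.45 to 4.54) than in any filtered-air array (4.36 to 4.43), a difference of 0.095 (two-sided exact permutation test, p = 0.00794, adjusted p = 0.0397 over 5 array summaries). Background is taken as 4.49, the mean of these medians over the 20 arrays. Below it a signal has no measured size, and a difference is then given as a lower bound. Signals between 4.49 and 8.36 still lie within the range of the negative controls, and folds there are given as computed. A mean above 8.36 was reached by 5213 of the 10684 genes.

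Of the 10684 genes, 405 (3.79%) differed between metformin and filtered air at a Benjamini-Hochberg adjusted p under 0.05 in limma, 168 higher (1.57%) and 237 lower (2.22%). The words rose and fell are kept for genes that passed. Every count over a list below is to be read beside these shares of all genes. The falls were larger: 84 genes fell and 42 rose by at least 2-fold, and 344 of the 405 changed by at least 1.5-fold. The median difference was 0.76 among genes that rose and -0.83 among genes that fell, against 0.0005 over all genes. The 5 metformin mice lay above all 5 filtered-air mice for 369 genes (3.45%) and below them for 411 (3.85%), and 130 of the 168 rises and 162 of the 237 falls were among these. When the negative-control median of each array was added to the model, 83 genes were higher and 81 lower. That median does not overlap between the 2 groups, so this term and the drug are partly confounded. A gene that misses the threshold with the term may depend on that signal or only have lost precision, and these cannot be told apart. Rises made up 41.5% of the calls without this term and 50.6% with it. Leaving out 1 mouse gave 61 higher and 99 lower without filtered-air mouse 1, 65 and 94 without metformin mouse 3, and, at the other end, 162 and 279 without filtered-air mouse 4.

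**Figure D1:**
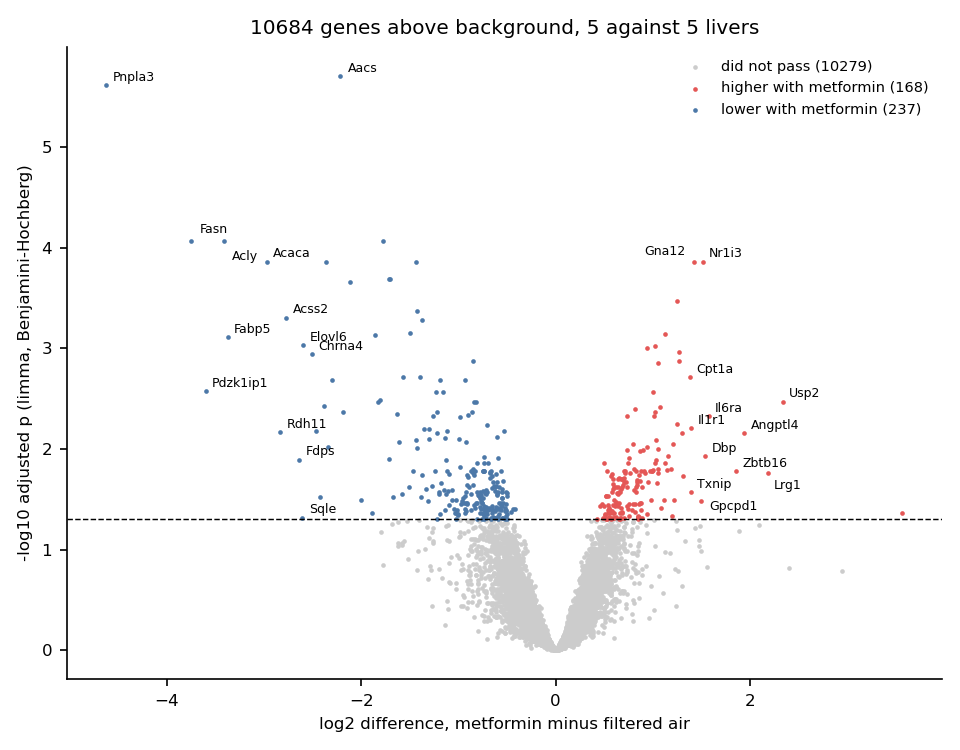
Each point is 1 of 10684 genes, with the log2 difference between metformin and filtered air on the x axis and −log10 of the limma adjusted p on the y axis. The dashed line is the threshold of 0.05. The labelled genes are the 12 largest rises and 12 largest falls among those that passed, and Aacs. The left arm, with Pnpla3, Fasn and Acly, reaches further than the right arm, led among the labelled genes by Usp2 and Lrg1; the unlabelled red point furthest right is a gene with a provisional name, which the naming rule passed over.

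Genes of fatty acid synthesis fell, 12 of them with every metformin mouse below every filtered-air mouse. The same held for 3.85% of all genes and for 162 of the 237 that fell. Of 16 tested genes of lipogenesis 13 (81.2%) fell and 0 rose, against 2.22% of all genes that fell, and all 16 had values below 0, with a median of -1.77. Signals of Fasn, the fatty acid synthase, were 15.30, 15.15, 15.51, 15.32 and 15.87 in filtered-air mice 1 to 5 and 11.91, 11.03, 11.50, 13.39 and 10.59 in metformin mice 1 to 5. Every metformin mouse was below every filtered-air mouse, with metformin mouse 4 the least reduced. The difference was -3.75 ± 0.45 (SE, 13.4-fold; adjusted p = 8.61e-05, limma).

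Most enzymes that supply the pathway fell with it. Acly, which cleaves citrate into cytosolic acetyl-CoA, went from 15.67, 15.70, 15.56, 16.16 and 16.70 to 13.27, 12.73, 11.51, 13.39 and 11.82, with no overlap and a 10.7-fold difference (adjusted p = 8.61e-05, limma). Acss2, which makes acetyl-CoA from acetate, fell 6.83-fold (adjusted p = 0.000493, limma). Aacs, which activates acetoacetate in the cytosol, had the lowest adjusted p of the comparison, 1.95e-06 (limma). Its signals were 9.51, 9.40, 9.48, 8.76 and 9.40 in filtered air and 6.79, 7.11, 6.83, 7.42 and 7.30 with metformin, so that the groups were more than 1 unit apart and each varied little. Me1 and Pgd, which provide NADPH for fatty acid synthesis, fell 2.82-fold and 3.55-fold (adjusted p = 0.000699 and 0.00337, limma). Pklr, the liver pyruvate kinase at the end of glycolysis, fell 3.27-fold (adjusted p = 0.0126, limma). Slc25a1, which exports citrate from mitochondria, and Taldo1, of the pentose phosphate pathway, were at -0.52 and -0.33 and did not pass.

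Both acetyl-CoA carboxylases fell at the level of their transcripts. Acaca, the cytosolic form that makes malonyl-CoA for fatty acid synthesis, went from 13.35, 13.71, 13.55, 13.73 and 15.19 to 10.93, 10.07, 10.64, 11.83 and 11.21. Filtered-air mouse 5 stood well above its group, and no metformin mouse reached any filtered-air mouse. Acacb, the form at the mitochondrial surface whose malonyl-CoA blocks fatty acid entry, stood at 8.91 ± 0.70 in filtered air and 7.05 ± 0.28 with metformin (SD, n = 5), a 3.63-fold fall (adjusted p = 0.000735, limma). Mid1ip1, whose product makes acetyl-CoA carboxylase polymerise into its active form, fell 3.19-fold (adjusted p = 0.0296, limma) with overlapping groups, and passed in only 2 of the 10 fits that left out 1 mouse (highest adjusted p 0.0804, without metformin mouse 5). Thrsp (Spot14), a relative of Mid1ip1, fell 2.69-fold (adjusted p = 0.000429, limma).

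Elovl6, which lengthens palmitate to stearate, went from 17.19, 17.56, 17.33, 17.01 and 17.91 to 15.18, 14.26, 14.29, 15.59 and 14.68 (6.06-fold, adjusted p = 0.000934, limma). Scd1, the stearoyl-CoA desaturase, was at 18.34 ± 0.07 in filtered air and 18.04 ± 0.31 with metformin (SD, n = 5), a difference of -0.30 ± 0.14 that did not pass (SE; adjusted p = 0.236, limma). Its signals lie close to 19.03, the highest value deposited, where an array can lose range. Of 11 tested desaturases and elongases outside this pathway 0 passed.

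Further along, Gpam, the mitochondrial acyltransferase that begins triglyceride assembly, fell 3.25-fold, from 16.14, 16.04, 16.47, 16.44 and 16.85 to 14.78, 14.82, 14.67, 15.24 and 13.93 (adjusted p = 0.000205, limma). It was the only 1 of 13 tested genes of triglyceride assembly that passed. Dgat2, which adds the last acyl chain, differed by -0.02 ± 0.18 (SE; adjusted p = 0.963, limma). Plin2, a coat protein of lipid droplets, differed by 0.06 ± 0.19 (SE; adjusted p = 0.888, limma), and 0 of 14 droplet protein genes passed. Pnpla3, a lipid droplet protein whose common human variant is tied to fatty liver, had signals of 7.30, 8.63, 8.43, 8.11 and 8.92 in filtered air and 4.13, 3.94, 3.31, 3.78 and 3.12 with metformin. All 5 metformin values lie below background, so that the fall was at least 13.8-fold (adjusted p = 2.41e-06, limma). Fabp5, a fatty acid binding protein, was at 9.61 ± 0.99 and 6.24 ± 0.42 (SD, n = 5), a 10.4-fold fall (adjusted p = 0.000772, limma), and Dbi, which binds acyl-CoA, fell 1.5-fold (adjusted p = 0.0124, limma). Cd36, the fatty acid translocase, was at 15.47 ± 0.14 and 15.42 ± 0.14 (SD).

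**Figure D2:**
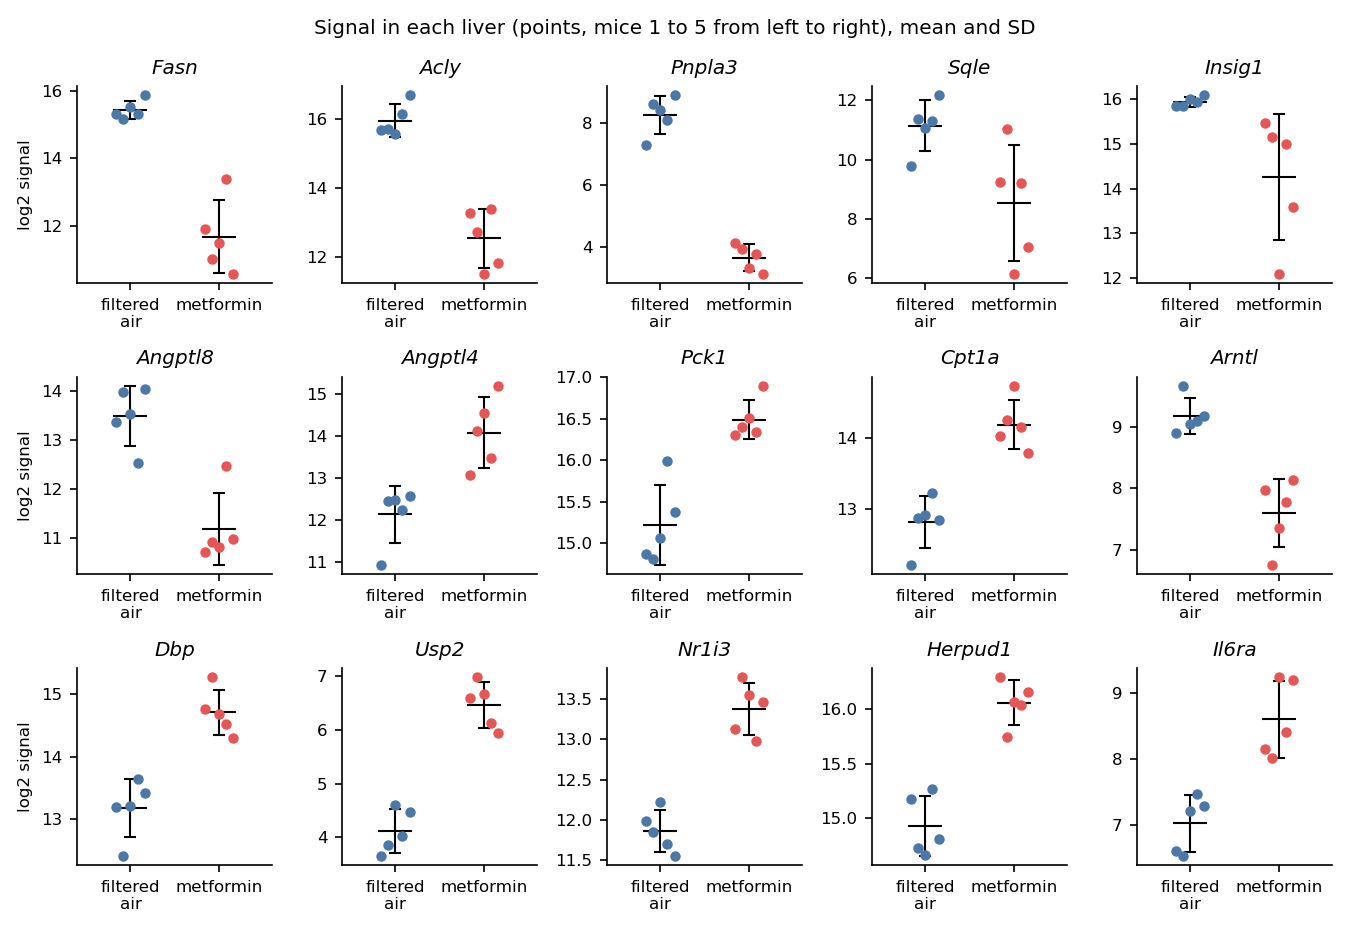
Log2 signal (y axis, its range set for each gene) of 15 genes in 5 filtered-air and 5 metformin livers; each point is 1 mouse, the long bar the group mean and the whiskers the SD. For Sqle the groups overlap; for the other 14 genes they do not, although Insig1 did not pass the test.

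Among the transcription factors of lipogenesis, ChREBP (Mlxipl), which senses glucose metabolites, went from 12.79, 12.05, 12.81, 12.54 and 12.61 to 11.77, 11.33, 10.76, 11.43 and 11.90, a 2.18-fold fall (adjusted p = 0.0167, limma). Its obligate partner Mlx went from 12.39 ± 0.18 to 11.73 ± 0.16 (SD, n = 5), a 1.58-fold fall (adjusted p = 0.0167, limma). Neither gene had overlapping groups, like 162 of the 237 genes that fell. These 2 were the only members of 13 tested lipogenic regulators that passed. Mlxipl missed the threshold without metformin mouse 3 (adjusted p = 0.0548, limma), and Mlx missed it without filtered-air mouse 1 (0.0534) and with the negative-control term (0.0721). Srebf2, which encodes SREBP2, differed by -0.29 ± 0.26 (SE; adjusted p = 0.573, limma). The gene of SREBP1c was not analysed here.

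A start region of Mlxipl and that of Mlx hold the E-box CACGTG, which is the core letters of the element that ChREBP and Mlx bind as a pair, and also of the element that clock factors bind. They are shown because these 2 factors fell together. Each window spans the start of transcription in RefSeq (GRCm38.p6), most of it upstream, and is written 5′ to 3′ on the strand of the gene, with the E-box in capitals. RefSeq gives Mlxipl a second start, at chr5:135106641-135106940, whose window does not hold these letters and is not printed.
Mlxipl, chr5:135089640-135089939, plus strand: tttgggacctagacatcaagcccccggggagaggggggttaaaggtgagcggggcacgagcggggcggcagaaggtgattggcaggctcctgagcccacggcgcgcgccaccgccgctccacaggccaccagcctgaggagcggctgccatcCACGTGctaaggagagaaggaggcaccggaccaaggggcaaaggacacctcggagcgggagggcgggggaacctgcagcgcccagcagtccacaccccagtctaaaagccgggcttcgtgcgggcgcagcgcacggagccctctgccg
Mlx, chr11:101087040-101087339, plus strand: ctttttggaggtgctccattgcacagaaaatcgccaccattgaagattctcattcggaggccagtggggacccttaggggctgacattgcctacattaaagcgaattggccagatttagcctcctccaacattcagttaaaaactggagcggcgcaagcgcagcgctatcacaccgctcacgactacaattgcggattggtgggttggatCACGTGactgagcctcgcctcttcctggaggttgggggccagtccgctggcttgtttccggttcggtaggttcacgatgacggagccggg
This E-box is common: it stands on either strand in 7.15% of 32851 RefSeq windows and in 11.5% of the tested genes that have one. A match is a description of letters, not a binding site. None of the 13 lipogenesis genes that fell holds it in its window, and 0 of the 13 holds the sterol regulatory element TCACCCCAC, which 0.551% of all windows hold; this says only that these letters are not in these windows.

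Genes of cholesterol synthesis were low in 4 of the 5 metformin mice. Of 17 tested genes 7 (41.2%) fell and 0 rose, against 2.22% of all genes that fell, and all 17 had values below 0, with a median of -1.42. Sqle, the squalene epoxidase, was at 9.79, 11.36, 11.06, 11.30 and 12.18 in filtered air and at 9.23, 11.05, 6.14, 9.20 and 7.05 with metformin. Metformin mouse 2 lay within the filtered-air range, and mice 3 and 5 were far below it. Fdps, which makes farnesyl pyrophosphate, went from 10.51, 11.34, 11.03, 11.28 and 11.85 to 9.31, 10.54, 7.34, 8.85 and 6.79, again with mouse 2 highest and mice 3 and 5 lowest (6.22-fold, adjusted p = 0.0127, limma). Mvd and Pmvk, earlier steps of the mevalonate pathway, fell 5.2-fold and 5.09-fold (adjusted p = 0.00376 and 0.00963, limma), and Nsdhl, Dhcr7 and Sc5d, which act late on the sterol ring, fell 3.7-fold, 2.98-fold and 1.7-fold (adjusted p = 0.043, 0.0279 and 0.0283, limma). Without metformin mouse 3 these last genes did not pass (adjusted p = 0.121, 0.0882 and 0.0858), while Fdps, Mvd and Pmvk passed in all 10 fits.

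Other sterol genes did not pass, and the metformin mice varied widely in them. Idi1, the isomerase of isopentenyl pyrophosphate, had signals of 13.11, 14.95, 10.10, 12.85 and 11.04 with metformin against 14.19 ± 0.53 in filtered air (SD, n = 5), and its difference of -1.78 ± 0.67 did not pass (SE; adjusted p = 0.141, limma). Insig1, a sterol-sensing brake on SREBP, was at 15.46, 15.15, 12.08, 15.01 and 13.60 against 15.84 to 16.10 in filtered air. Its groups did not overlap, and its adjusted p was 0.0557 (limma). Without metformin mouse 2, 12 of the 17 genes on the cholesterol synthesis list fell. Among them were Cyp51 (adjusted p = 0.0118, limma), Lss (0.0123), Idi1 (0.0302) and Hmgcs1 (0.0413). Stard4, a sterol carrier counted in the list and not an enzyme of the pathway, was also among them (adjusted p = 0.0207, limma). Without metformin mouse 3 or 5, or filtered-air mouse 2, 3 or 5, only 3 fell, and with the negative-control term 2; Sqle passed in 1 of the 10 fits that left out a mouse (adjusted p = 0.136 without metformin mouse 3). Averaged over the list, the deviation from the filtered-air mean was -1.12, 0.08, -2.75, -1.21 and -2.50 in metformin mice 1 to 5.

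Fatty acid synthesis did not follow this order of mice. The same average over the lipogenesis list was -1.85, -2.00, -2.07, -1.23 and -2.14, so that metformin mouse 2, with the sterol genes at the filtered-air level, was as low as the others. In filtered air the lipogenesis averages ran from -0.26 to 0.55. Of the 16 genes, 12 or 13 passed in each of the 10 fits that left out 1 mouse, and 11 with the negative-control term. Rdh11, a retinol dehydrogenase, varied like the sterol genes, with 10.94, 12.37, 8.60, 10.28 and 9.68 against 13.21 ± 0.47 in filtered air (SD, n = 5), a 7.12-fold fall (adjusted p = 0.00673, limma).

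**Figure D3:**
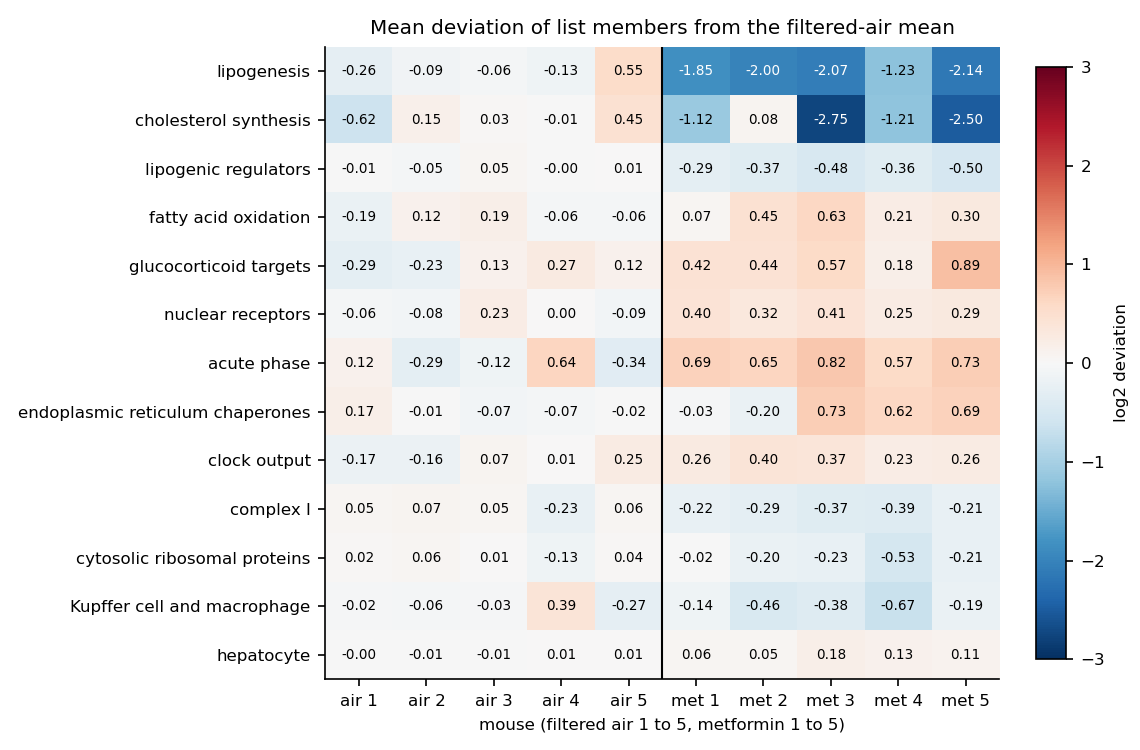
Each cell gives, for 1 mouse (columns, filtered air 1 to 5 and metformin 1 to 5) and 1 gene list (rows), the mean over the tested members of the log2 deviation from the filtered-air mean. Lipogenesis is low in all 5 metformin mice (-1.23 to -2.14), cholesterol synthesis in 4 of them (metformin mouse 2 is at 0.08), and the chaperone list is high in mice 3 to 5 (0.62 to 0.73).

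Few genes of fatty acid oxidation passed. Of 30 tested genes 3 rose and 0 fell, against 1.57% of all genes that rose, 25 had values above 0 and 5 below, and the median was 0.20. Cpt1a, which carries long-chain fatty acids into mitochondria and is blocked by malonyl-CoA, went from 12.20, 12.87, 12.91, 13.22 and 12.84 to 14.03, 14.25, 14.74, 14.15 and 13.79 (2.61-fold, adjusted p = 0.00192, limma). Ppara, the fasting receptor for fatty acids, was at 12.51 ± 0.19 and 13.46 ± 0.21 (SD, n = 5), a 1.92-fold rise (adjusted p = 0.00963, limma). Creb3l3, a membrane-bound liver transcription factor that acts with it, was at 13.10 ± 0.15 and 14.13 ± 0.30 (SD, n = 5), a 2.04-fold rise (adjusted p = 0.00094, limma). All 3 had every metformin mouse above every filtered-air mouse, like 130 of the 168 genes that rose. Cpt2, the partner of Cpt1a, was 1.78-fold higher and Pex11a, a peroxisomal protein induced by PPAR-alpha, 2.71-fold higher, and neither passed (adjusted p = 0.059 and 0.0611, limma). Slc27a2, an acyl-CoA synthetase that also takes up fatty acids, rose 1.44-fold (adjusted p = 0.0165, limma; 0.0594 with the negative-control term). Acsl5, a synthetase counted in the lipogenesis list, fell 1.76-fold (adjusted p = 0.00337, limma).

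Both secreted partners that tune lipoprotein lipase changed, in opposite directions. Angptl8, which is induced by feeding, was at 13.36, 13.98, 13.52, 12.53 and 14.04 in filtered air and at 10.72, 10.92, 10.83, 12.48 and 10.98 with metformin (4.93-fold lower, adjusted p = 0.00208, limma). Metformin mouse 4, the mouse with the smallest fall of Fasn, stood just under the lowest filtered-air mouse. Angptl4, which is induced by fasting and PPAR receptors, was at 10.93, 12.44, 12.47, 12.24 and 12.58 in filtered air and at 13.06, 14.11, 14.55, 13.48 and 15.18 with metformin (3.85-fold higher, adjusted p = 0.00696, limma). Apoa5, which helps lipases act on triglyceride-rich particles, rose 1.45-fold (adjusted p = 0.0292, limma; lost in 6 of 10 fits without 1 mouse, with an adjusted p of 0.083 without filtered-air mouse 3), the only 1 of 14 apolipoprotein genes that passed. Agt, the precursor of angiotensin, rose 1.68-fold (adjusted p = 0.0138, limma). Fgf21, a fasting hormone of the liver, was dim in both groups, 5.30 ± 1.00 and 5.69 ± 0.85 (SD), and did not pass (adjusted p = 0.726, limma). Npc1, which exports cholesterol from lysosomes, rose 1.99-fold (adjusted p = 0.0167, limma; 0.0562 without filtered-air mouse 1), 1 of 12 tested genes of cholesterol uptake and transport. In all, 1 of 14 lipases and their regulators rose and 2 fell, 2 of 21 hepatokines rose and 1 fell, and 1 of 15 genes of fatty acid uptake rose and 2 fell.

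For glucose production, Pck1 rose and other enzymes did not pass. Pck1, which makes phosphoenolpyruvate and is induced by glucagon, was at 14.86, 14.81, 15.06, 15.99 and 15.38 in filtered air and at 16.31, 16.40, 16.51, 16.35 and 16.90 with metformin (2.41-fold, adjusted p = 0.00132, limma). The highest filtered-air mouse was below the lowest metformin mouse. It was the only member of 18 tested genes of gluconeogenesis that passed. G6pc, the last step of glucose release, differed by -0.13 ± 0.20 (SE; adjusted p = 0.773, limma) and the coactivator Ppargc1a by 0.00 ± 0.34 (SE; adjusted p = 0.998, limma). Igfbp1, which insulin represses, differed by -0.56 ± 0.35 (SE; adjusted p = 0.393, limma).

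Of 16 tested genes of glucose use and glycogen 1 rose and 1 fell. Ppp1r3c, which targets a phosphatase to glycogen, was at 14.39, 14.32, 14.54, 13.84 and 14.30 in filtered air and at 11.69, 11.79, 12.11, 12.32 and 12.52 with metformin, a 4.57-fold fall with no overlap (adjusted p = 0.00432, limma). Txnip, which restrains glucose uptake and is a ChREBP target in other settings, rose 2.63-fold, with 13.90, 14.10, 15.22, 13.45 and 15.56 against 13.05 ± 0.18 in filtered air (SD, n = 5; adjusted p = 0.027, limma). Txnip passed in 4 of the 10 fits without 1 mouse (adjusted p = 0.0858 without metformin mouse 3). Of 10 tested genes that control the entry of pyruvate into the citric acid cycle 2 fell, against 2.22% of all genes that fell. Pdk1, a kinase that inhibits pyruvate dehydrogenase, fell by 0.84 ± 0.15 and Dlat, a subunit of that complex, by 0.98 ± 0.18 (SE; adjusted p = 0.00337 and 0.00478, limma). Pdk4, the kinase induced by fasting, was lower in all 5 metformin mice, 8.62, 7.53, 8.46, 7.85 and 8.17 against 9.66, 10.13, 9.06, 9.01 and 9.07, and did not pass (adjusted p = 0.0856, limma).

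The transcripts of the drug's own transporters and of AMPK did not pass. Of 21 tested genes in this list 0 passed, with values from -0.67 to 0.62. The catalytic subunits Prkaa1 and Prkaa2 differed by -0.11 ± 0.23 and -0.01 ± 0.19, and Slc47a1, which exports metformin, by 0.15 ± 0.13 (SE; adjusted p = 0.837, 0.988 and 0.568, limma). At these errors a small difference would not have been seen, and transcripts do not measure phosphorylation. Gpd1 and Gpd2, of the glycerol phosphate shuttle that metformin is reported to inhibit, differed by 0.54 ± 0.22 and -0.32 ± 0.27 (SE; adjusted p = 0.168 and 0.539, limma).

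**Figure D4:**
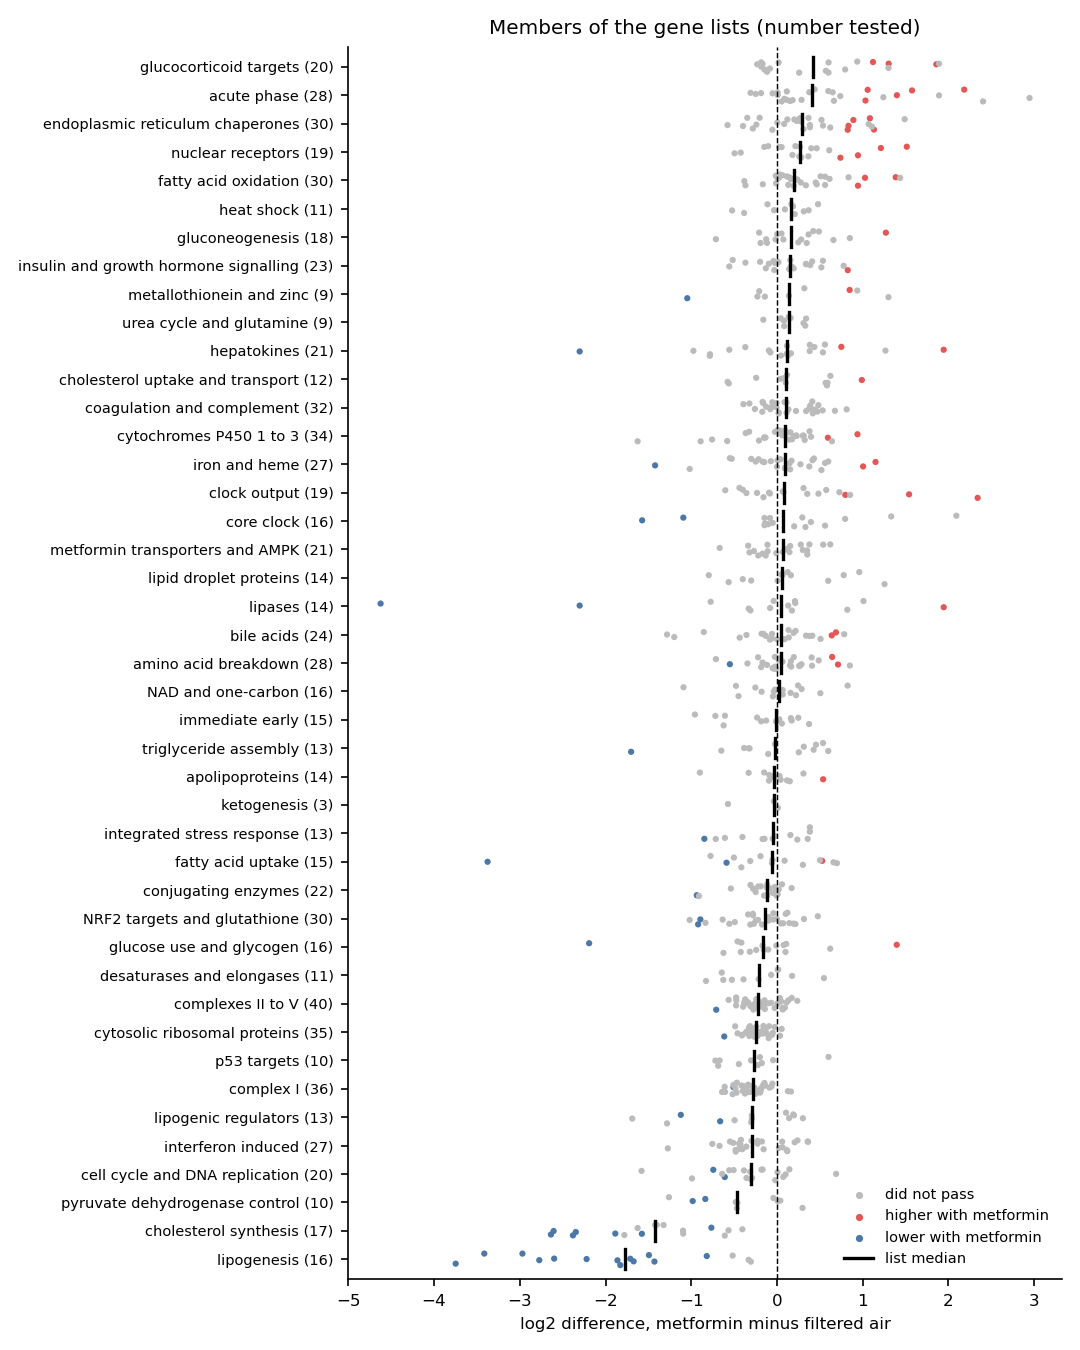
Each point is 1 tested member of 1 gene list (y axis, with the number tested), at its log2 difference between metformin and filtered air (x axis); red points passed as higher and blue as lower. The black bar is the list median and the dashed line the median of all genes. Lipogenesis and cholesterol synthesis stand at the bottom with medians of -1.77 and -1.42; the other pathway list medians lie between -0.46 and 0.41.

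Clock genes differed in a particular set. The hepatic clock turns on activators (Arntl, Clock, Npas2), which induce the Per and Cry repressors and output factors such as Dbp over the day. Arntl (Bmal1) was at 8.90, 9.66, 9.03, 9.08 and 9.16 in filtered air and at 7.97, 6.75, 7.35, 7.77 and 8.13 with metformin (2.97-fold lower, adjusted p = 0.00192, limma). Npas2, an alternative partner of Arntl, fell at least 1.95-fold from 5.52 ± 0.52 to a mean below background (SD; adjusted p = 0.0362, limma; lost in 7 of 10 fits without 1 mouse, the highest adjusted p 0.101 without filtered-air mouse 2). Clock itself differed by -0.15 ± 0.15 and the repressor Nr1d1 by -0.05 ± 0.25 (SE; adjusted p = 0.642 and 0.939, limma).

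Some output factors rose. Of 19 tested output genes 3 rose and 0 fell, against 1.57% of all genes that rose. Of the 19, 11 had values above 0 and 8 below, and the median was 0.08. Dbp was at 13.19, 12.40, 13.21, 13.65 and 13.41 in filtered air and at 14.76, 15.28, 14.69, 14.53 and 14.31 with metformin (2.91-fold, adjusted p = 0.0117, limma). Usp2, a deubiquitinase under clock control, was below background in filtered air, so that its rise is a bound: its signals were 3.65, 3.85, 4.61, 4.02 and 4.48 in filtered air and 6.59, 6.98, 6.67, 6.13 and 5.94 with metformin, at least 3.87-fold (adjusted p = 0.00337, limma). Hlf, a relative of Dbp, rose 1.74-fold (adjusted p = 0.0352, limma; lost in 7 of 10 fits, highest 0.105 without metformin mouse 3). Ciart and Per3, both repressors, were higher in all 5 metformin mice than in any filtered-air mouse, by 2.09 ± 0.61 and 1.33 ± 0.43, and did not pass (SE; adjusted p = 0.0571 and 0.0826, limma). Of 16 tested core clock genes 2 fell and 0 rose, against 2.22% of all genes that fell. The hour at which each mouse was killed is not given, and a difference of hour and a difference of drug cannot be told apart in these genes.

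Some receptors that sense lipids and foreign compounds rose. Of 19 tested nuclear receptors 4 (21.1%) rose and 0 fell, against 1.57% of all genes that rose, and the same count passed in 9 of the 10 fits without 1 mouse and with the negative-control term. Nr1i3 (CAR), which senses drugs, was at 11.98, 11.85, 12.22, 11.70 and 11.55 in filtered air and at 13.13, 13.77, 13.55, 12.97 and 13.46 with metformin (2.86-fold, adjusted p = 0.000137, limma). Nr1i2 (PXR), its relative, rose 1.67-fold (adjusted p = 0.00466, limma), and Rxra, the shared partner of these receptors, 2.32-fold (adjusted p = 0.00882, limma); the fourth was Ppara. No metformin mouse overlapped a filtered-air mouse in any of the 4 genes, as in 130 of the 168 genes that rose. Among 34 cytochromes P450 of families 1 to 3, 2 rose, against 1.57% of all genes. They were Cyp3a13, 1.92-fold (adjusted p = 0.000999, limma), and Cyp2a5, 1.51-fold (adjusted p = 0.043, limma). Cyp2a5 was lost in each of the 10 fits without 1 mouse, with an adjusted p of up to 0.113 without metformin mouse 3 (limma). Cyp2b10, the classical CAR target, was at 15.16 ± 0.20 and 15.32 ± 0.41 (SD; adjusted p = 0.733, limma).

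In the bile acid list 2 of 24 genes rose, both transporters, against 1.57% of all genes that rose. Abcb4, which moves phospholipid into bile, rose 1.61-fold and Abcc3, which exports conjugates to the blood, 1.56-fold (adjusted p = 0.0199 and 0.0368, limma). Abcb4 was lost in 3 and Abcc3 in 8 of 10 fits without 1 mouse, with adjusted p of up to 0.064 (without filtered-air mouse 1) and 0.0981 (without filtered-air mouse 5), and both missed the threshold with the negative-control term (0.0735 and 0.115). Abcb11, the bile salt export pump, was at 14.39 ± 0.17 and 13.54 ± 0.66 and Cyp7a1, the rate-limiting enzyme of bile acid synthesis, at 15.98 ± 0.43 and 16.48 ± 0.94 (SD), and neither passed (adjusted p = 0.0776 and 0.486, limma). Nr0b2 (SHP), a repressor of bile acid synthesis, was 2.43-fold lower and did not pass (adjusted p = 0.16, limma).

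Genes of protein folding in the endoplasmic reticulum rose in some mice. Of 30 tested genes 5 (16.7%) rose and 0 fell, against 1.57% of all genes that rose: Herpud1, Pdia3, Calr, Dnajb11 and Sel1l. Herpud1, which helps remove misfolded proteins, rose in all 5 metformin mice, from 15.18, 14.73, 14.66, 15.27 and 14.81 to 16.30, 15.74, 16.07, 16.04 and 16.16 (2.19-fold, adjusted p = 0.000711, limma). Pdia3, a disulfide isomerase for glycoproteins, was at 13.25 ± 0.18 in filtered air (SD) and at 13.55, 13.48, 14.46, 14.29 and 14.58 with metformin (adjusted p = 0.0167, limma). Calr, the calcium-binding chaperone calreticulin, was at 15.91 ± 0.13 (SD) and at 16.44, 16.11, 17.05, 17.10 and 17.02 (adjusted p = 0.0203, limma). Metformin mice 3, 4 and 5 were high and mice 1 and 2 closer to filtered air. Dnajb11, a cofactor of the chaperone BiP, had the same pattern, 8.73, 8.48, 10.06, 10.14 and 9.96 against 8.39 ± 0.22 (SD; adjusted p = 0.0387, limma).

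Averaged over the chaperone list, the deviation was -0.03, -0.20, 0.73, 0.62 and 0.69 in metformin mice 1 to 5. The number of members that rose ranged from 1, without metformin mouse 3, to 7, without metformin mouse 1 or 2. Without metformin mouse 3 the adjusted p was 0.0662 for Calr, 0.0561 for Pdia3, 0.111 for Dnajb11 and 0.136 for Sel1l, and Herpud1 passed in all 10 fits. Sdf2l1, a BiP partner, was at 5.10, 4.54, 7.83, 6.35 and 7.78 against 4.83 ± 0.32 (SD) and did not pass (adjusted p = 0.058, limma). BiP itself (Hspa5) and Hsp90b1 differed by 0.28 ± 0.22 and 0.26 ± 0.15 (SE; adjusted p = 0.514 and 0.343, limma).

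The window of Calr is printed because, of the 5 chaperone genes that rose, it alone holds the form of the ER stress response element searched for. That form is CCAAT, then any 9 bases, then CCACG, which ATF6 and NF-Y recognise. Other forms and spacings of the element were not searched, so the windows of the other genes may hold them. The match is on the strand opposite the gene and reads in reverse in the capitals.
Calr, GRCm38.p6, chr8:84846882-84847181, minus strand: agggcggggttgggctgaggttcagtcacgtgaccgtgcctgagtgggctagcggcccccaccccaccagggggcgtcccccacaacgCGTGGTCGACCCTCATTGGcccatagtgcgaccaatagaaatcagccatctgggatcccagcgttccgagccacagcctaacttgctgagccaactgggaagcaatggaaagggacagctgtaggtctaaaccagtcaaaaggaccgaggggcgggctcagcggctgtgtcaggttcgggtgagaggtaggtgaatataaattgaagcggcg
The form searched for stands in 39 of 32851 windows (0.119%).

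Among tested genes of the integrated stress response, the arm of stress signalling that runs through eIF2-alpha, 0 rose. Transcripts do not measure the activity of this arm. Atf4, its transcription factor, fell, from 12.90, 12.95, 13.10, 12.88 and 13.05 to 12.39, 12.34, 12.06, 11.89 and 11.96 (1.8-fold, adjusted p = 0.00132, limma), with no overlap. It was the only 1 of 13 tested genes of this response that passed. Its targets Asns, Ddit3 and Trib3 differed by 0.36 ± 0.44, -0.40 ± 0.19 and -0.02 ± 0.15 (SE; adjusted p = 0.7, 0.243 and 0.953, limma). At these errors a small difference would not have been seen. Asns was at 9.16 in metformin mouse 1 and at 6.04 to 7.21 in the other metformin mice. Averaged over the list, the deviation was 0.42 in metformin mouse 1 and -0.42 to -0.12 in the others.

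Averaged over the acute phase list, the deviation was 0.57 to 0.82 in the metformin mice, and in filtered air 0.64 in mouse 4 and -0.34 to 0.12 in the others. Of 28 tested genes 5 (17.9%) rose and 0 fell, against 1.57% of all genes that rose, 24 had values above 0, and the median was 0.41. Il6ra, the receptor for interleukin-6, was at 6.60, 6.52, 7.21, 7.47 and 7.29 in filtered air and at 8.15, 8.01, 9.24, 8.40 and 9.18 with metformin (2.98-fold, adjusted p = 0.0047, limma). Il1r1, the receptor for interleukin-1, rose 2.64-fold (adjusted p = 0.00624, limma) and Stat3, the factor that carries the interleukin-6 signal, 2.04-fold (adjusted p = 0.00815, limma). Lbp, which binds bacterial lipopolysaccharide, rose 2.08-fold and Lrg1, a secreted glycoprotein, 4.54-fold (adjusted p = 0.0158 and 0.0171, limma). None of the 5 genes had overlapping groups, like 130 of the 168 genes that rose.

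The most responsive acute phase proteins varied within filtered air. Saa1, serum amyloid A, was at 11.74, 9.23, 10.60, 13.12 and 9.01 in filtered air and at 13.02, 13.33, 12.93, 13.01 and 13.44 with metformin. Filtered-air mouse 4 was as high as the metformin mice, which hardly varied, and the difference did not pass (adjusted p = 0.153, limma). Lcn2, lipocalin 2, was 3.71-fold higher and did not pass (adjusted p = 0.0649, limma). Without filtered-air mouse 4, 9 of the 28 genes rose; without filtered-air mouse 2, 3 did. Lbp then had an adjusted p of 0.0506, and Lrg1 had 0.0586 without metformin mouse 3.

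Among 20 tested genes induced by glucocorticoids 3 rose and 0 fell, against 1.57% of all genes that rose, with a median of 0.41. Klf9, a transcription factor, was at 10.84, 11.08, 11.71, 12.12 and 11.88 in filtered air and at 12.58, 12.99, 12.83, 12.44 and 13.29 with metformin (2.47-fold, adjusted p = 0.00696, limma). Zbtb16 (PLZF), another, was at 7.76, 8.26, 9.70, 8.47 and 9.99 against 6.98 ± 0.27 in filtered air (SD, n = 5; 3.62-fold, adjusted p = 0.0167, limma). Fkbp5, a chaperone of the glucocorticoid receptor, rose 2.17-fold (adjusted p = 0.0321, limma), and Tsc22d3 (GILZ) differed by 0.60 ± 0.36 (SE; adjusted p = 0.366, limma). Metformin mice 3 and 5, lowest for the sterol genes, were highest for Zbtb16. Without metformin mouse 3 Zbtb16 and Fkbp5 did not pass (adjusted p = 0.0549 and 0.097, limma), and Klf9 passed in all 10 fits. Hormone levels were not measured.

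Of 27 tested genes of iron and heme 2 rose and 1 fell, against 1.57% of all genes that rose and 2.22% that fell. Alas1, the rate-limiting enzyme of heme synthesis, was at 14.08, 14.30, 14.32, 14.42 and 14.14 in filtered air and at 14.51, 15.89, 15.91, 15.89 and 14.81 with metformin (2.22-fold, adjusted p = 0.0162, limma). Metformin mice 2, 3 and 4 were high and mice 1 and 5 just above filtered air. Cpox, a later step, rose 2.01-fold (adjusted p = 0.0162, limma). Tfrc, the transferrin receptor, was at 11.29 ± 0.69 in filtered air, the lowest mouse at 10.22 (SD, n = 5), and at 9.11, 9.24, 10.38, 10.64 and 9.97 with metformin (2.68-fold lower, adjusted p = 0.0097, limma), with overlapping groups. Hamp, the iron hormone hepcidin, differed by -0.25 ± 0.23 (SE; adjusted p = 0.588, limma). Alas1 and Cpox both missed the threshold without metformin mouse 3 (adjusted p = 0.0526 each) and with the negative-control term (0.0688 and 0.056), and Tfrc passed in all of these. Of 9 tested metallothionein and zinc genes the importer Slc39a14 rose 1.8-fold and Slc30a10, which exports manganese, fell 2.07-fold (adjusted p = 0.0491 and 0.039, limma; passing in 2 and 3 of 10 fits without 1 mouse, with adjusted p of 0.142 without filtered-air mouse 1 and 0.0907 without filtered-air mouse 2). Mt1 and Mt2 were 1.91-fold and 2.46-fold higher and did not pass (adjusted p = 0.146 and 0.23, limma).

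Subunits of the respiratory chain were slightly lower as groups. Of 36 tested complex I genes 34 had values below 0 with a median of -0.28, and 1 fell, Ndufb3, by 0.51 ± 0.14 (SE; adjusted p = 0.0416, limma). Of 40 genes of complexes II to V, 30 had values below 0 with a median of -0.22, and 1 fell, Uqcr10, by 0.71 ± 0.19 (SE; adjusted p = 0.0441, limma). Ribosomal proteins had much the same shift: 33 of 35 lay below 0 with a median of -0.24, and 1 fell, Rpl37, by 0.62 ± 0.14 (SE; adjusted p = 0.0177, limma). A share of 1 in 35 to 40 is near the 2.22% of all genes that fell. Ndufb3 and Uqcr10 passed in 1 of the 10 fits without 1 mouse (adjusted p = 0.101 and 0.114 without filtered-air mouse 2), and not with the negative-control term (adjusted p = 0.143 and 0.163). Rpl37 missed the threshold without filtered-air mouse 1 (0.0572). Without filtered-air mouse 4, whose complex I average was the lowest of its group (-0.23), 6 complex I genes fell. The negative-control median of the metformin arrays was higher by the 0.095 given above. Its part in these small shifts was tested only by the term in the model, which is partly confounded with the drug. Under that term the list medians were -0.28, -0.16 and -0.19.

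A few genes of detoxification and growth fell. Gstm4 and Gstm6, glutathione transferases of the mu class, fell 1.89-fold and 1.86-fold (adjusted p = 0.00855 and 0.0236, limma), the only 2 of 30 tested genes of glutathione and NRF2 that passed. These 2 genes belong to a family of near-identical copies, whose signals an array cannot fully separate. Hmox1 and Nqo1, standard NRF2 targets, differed by -1.02 ± 0.36 and -0.28 ± 0.25 (SE; adjusted p = 0.113 and 0.579, limma). Sult1c2, a sulfotransferase, fell 1.91-fold (adjusted p = 0.0428, limma; passing in 1 of 10 fits, 0.123 without metformin mouse 3), 1 of 22 tested conjugating enzymes. Of 20 tested genes of cell cycle and DNA replication 2 fell, Tyms, which makes thymidylate, by 0.61 ± 0.14 and Mcm3, of the replicative helicase, by 0.74 ± 0.19 (SE; adjusted p = 0.0234 and 0.0309, limma). The proliferation marker Mki67 was 2.99-fold lower and did not pass (adjusted p = 0.085, limma). For amino acids, Aass of lysine breakdown and Gpt2, an alanine transaminase, rose 1.64-fold and 1.56-fold, and Haao of tryptophan breakdown fell 1.46-fold (adjusted p = 0.0167, 0.0236 and 0.0249, limma), 3 of 28 tested genes. Without metformin mouse 3 the adjusted p was 0.0781 for Tyms, 0.0974 for Mcm3, 0.0547 for Aass, 0.079 for Gpt2 and 0.0681 for Haao, and without filtered-air mouse 2 it was 0.0677 for Gstm6. Igfbp4, which binds insulin-like growth factors, rose 1.77-fold (adjusted p = 0.0239, limma), the only 1 of 23 genes of insulin and growth hormone signalling that passed; it too had an adjusted p of 0.0677 without filtered-air mouse 2. None of the tested genes passed in the lists of heat shock (11 genes), interferon response (27), immediate early response (15), p53 targets (10), ketogenesis (3), the urea cycle (9), coagulation and complement (32) and NAD and one-carbon metabolism (16).

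Of 17 tested Kupffer cell and macrophage markers 14 had values below 0 with a median of -0.44, and 1 fell, Cd9, 2.28-fold (adjusted p = 0.0441, limma; passing in 1 of 10 fits, 0.116 without filtered-air mouse 2). The log2 of their summed signal was 14.92 to 15.55 in filtered air and 14.46 to 14.91 with metformin. Adgre1 and Clec4f, which define these cells, were 1.47-fold and 1.87-fold lower in all 5 metformin mice and did not pass (adjusted p = 0.32 and 0.219, limma). The SD of Adgre1 was 0.29 in filtered air, 0.20 with metformin, 0.53 with PM2.5 and 0.86 with both. For Clec4f these were 0.42, 0.36, 0.46 and 1.26. All 4 groups enter the error estimate, so these 2 tests do not rest on the compared mice alone. With the negative-control term the median of the list was -0.05. Of 15 endothelial markers 2 fell, against 2.22% of all genes that fell. They were Emcn, 1.56-fold, and Stab2, 1.69-fold (adjusted p = 0.0212 and 0.0346, limma). Of the 15 markers 13 had values below 0, with summed signals of 14.71 to 15.15 and 14.46 to 14.96. Of 11 stellate cell markers 0 passed. Krt7, 1 of 3 tested cholangiocyte markers, fell 1.6-fold (adjusted p = 0.0194, limma), and the other two had values above 0. Without metformin mouse 3 the adjusted p was 0.0725 for Emcn and 0.105 for Stab2, and without filtered-air mouse 5 it was 0.0581 for Krt7. Cd9, Emcn, Stab2 and Krt7 did not pass with the negative-control term (adjusted p = 0.176, 0.0956, 0.0964 and 0.0815). The part of these cells in other results was not tested. Of the 3 T and NK cell, 3 neutrophil, 2 erythroid, 2 adipocyte and 1 acinar markers tested, and of the 8 of pericentral hepatocytes, 0 passed; all 3 T and NK cell and both erythroid markers had values above 0, with medians of 0.29 and 0.15; of 5 periportal markers Pck1 rose. Of the 7 B and plasma cell markers listed, 0 were tested.

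Some of the largest changes stood outside the lists. Pdzk1ip1, a small membrane protein, was at 8.10, 9.31, 8.68, 8.67 and 11.01 in filtered air and at 5.56, 7.11, 4.62, 4.72 and 5.75 with metformin (12.1-fold lower, adjusted p = 0.00266, limma). Filtered-air mouse 5 was again the highest, as for Acaca and Fabp5. Chrna4, a nicotinic receptor subunit, went from 5.83, 6.33, 7.12, 6.91 and 8.77 to 3.93, 4.94, 4.45, 4.75 and 4.37, whose mean of 4.49 is at background (adjusted p = 0.00114, limma), so that the full size of its fall was not measured. Gna12, a G protein subunit, was at 11.36, 11.18, 11.74, 11.52 and 11.53 in filtered air and at 12.63, 12.99, 13.16, 12.79 and 12.90 with metformin (2.69-fold higher, adjusted p = 0.000137, limma), with no overlap. Gpcpd1, which breaks down glycerophosphocholine, rose 2.83-fold (adjusted p = 0.033, limma) with overlapping groups, and missed the threshold without filtered-air mouse 2 (0.0922).

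A second set of 10 mice allows the same drug contrast to be seen with particles, in PM2.5 with metformin against PM2.5 alone, on arrays that do not enter the differences above. All 20 arrays share 1 fit, so the PM2.5 arrays do enter its error estimates and the filter on background; with the first 10 arrays fitted alone 229 genes were higher and 351 lower. There 1433 genes (13.4%) passed, 857 higher and 576 lower. Of the 168 genes that rose without particles 144 had values above 0 under PM2.5 and 51 also passed as higher. Of the 237 that fell 197 had values below 0 and 42 passed as lower. Another 3 passed in the opposite direction. The differences were smaller: the medians under PM2.5 were 0.39 and -0.24, where those without particles, by which the genes had been chosen, were 0.76 and -0.83. Over all genes the median under PM2.5 was -0.01.

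Several genes of lipogenesis differed between both settings. The interaction is what remains when the metformin difference without particles is subtracted from that under PM2.5. It passed for 26 of all genes (0.243%) and for 14 of the 405 (3.46%), of which 10 had fallen and 4 had risen; the second share is read no further because the interaction contains the difference that chose those genes. Fasn differed by -3.75 without particles and by -0.43 with them, an interaction of 3.32 ± 0.64 (SE; adjusted p = 0.0298, limma). Acly differed by -3.41 and -0.60 (interaction 2.82 ± 0.57, adjusted p = 0.0357), Aacs by -2.22 and 0.07 (2.29 ± 0.28, adjusted p = 0.000495) and Gpam by -1.70 and 0.07 (1.77 ± 0.32, adjusted p = 0.0222, limma). The interaction of Pnpla3 also passed (adjusted p = 0.0298, limma), but its size is not measured because the gene lay below background with metformin in both settings. With PM2.5 alone these genes were also lower than in filtered air, at -1.89 for Fasn, -1.58 for Acly, -2.35 for Aacs and -1.10 for Gpam (adjusted p = 0.0172, 0.0245, 6.78e-07 and 0.00789, limma), so that metformin was compared from a lower level under PM2.5; both comparisons use the same filtered-air arrays. Of the 16 lipogenesis genes 6 fell with metformin under PM2.5 and 0 rose. Elovl6 and Fabp5 fell in both settings, by 1.69 and 1.99 under PM2.5 (adjusted p = 0.00955 and 0.0149, limma).

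Both lipase regulators differed between the settings as well. Angptl8 differed by -2.30 without and 0.71 with particles (interaction 3.02 ± 0.55, adjusted p = 0.0222, limma) and Angptl4 by 1.94 and -0.86 (interaction -2.80 ± 0.54, adjusted p = 0.0298, limma). Against the same filtered-air mice, PM2.5 alone differed by -3.19 for Angptl8, 2.46 for Angptl4, 0.66 for Creb3l3 and 0.97 for Nr1i2 (adjusted p = 0.000132, 0.00148, 0.0187 and 0.000832, limma), each in the direction of metformin alone. Creb3l3 and Nr1i2 rose by 1.03 and 0.74 without particles and were at -0.05 and -0.26 with them (interaction adjusted p = 0.0464 and 0.0323, limma). Other genes, chosen after their values were seen, passed in both settings: Dbp at 1.54 and 1.89, Lrg1 at 2.18 and 1.79, Stat3 at 1.03 and 0.93, and Nr1i3 at 1.51 and 0.91 were higher in both, and Arntl at -1.57 and -0.96 was lower in both (adjusted p under PM2.5 = 0.00145, 0.0215, 0.0065, 0.00546 and 0.0208, limma). The interaction of these 5 genes did not pass (adjusted p = 0.791, 0.851, 0.919, 0.332 and 0.491), which does not show that the differences are equal. The number of genes with an interaction ranged from 7 to 30 when 1 filtered-air or metformin mouse was left out. It was 45 with the negative-control term. The interaction also rests on the mice given PM2.5, and these were not left out in turn.

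**Figure D5:**
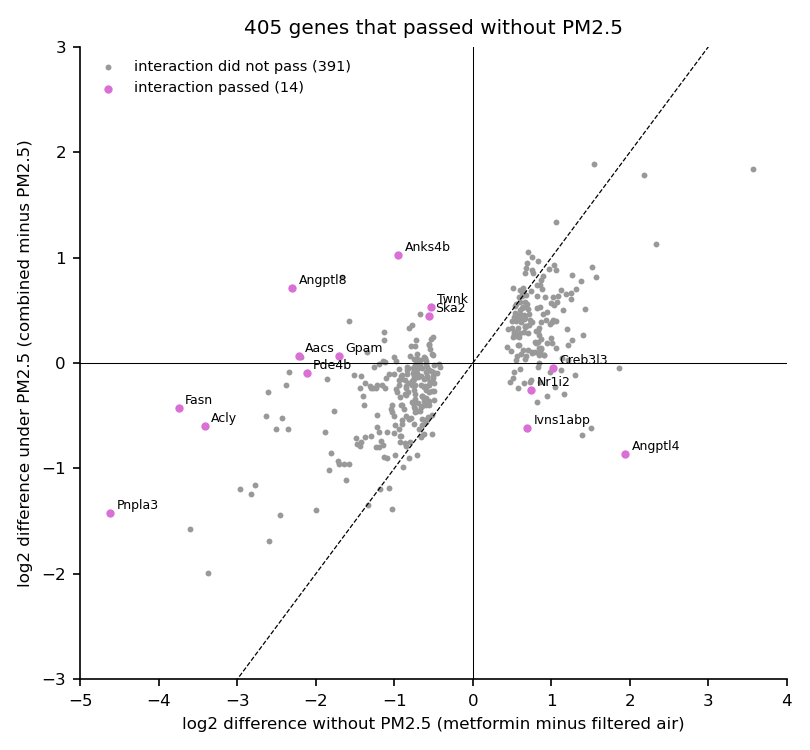
Each point is 1 of the 405 genes that passed without particles, with its log2 metformin difference without PM2.5 on the x axis and under PM2.5 on the y axis. The dashed line marks equal differences. The 14 genes whose interaction passed are named; Fasn, Acly, Aacs, Gpam and Pnpla3 (below background with metformin, so its differences are not measured sizes) lie well above the line on the left, and Angptl4 below it on the right.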

How the data were processed

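RNA of 20 livers, 1 per mouse, was measured on single-colour Affymetrix arrays. The deposited values are on a log2 scale, 1 per probe set, and come from Expression Console, the array maker's software, per the submitters' processing notes. Its version and summary method are not given in the sources used here, and neither normalization nor background correction could be checked. Per the series' design text another array type was used than the one whose identifiers the deposited table holds, so genes were taken from the platform annotation of those identifiers. Of 28846 probe sets 6640 were controls; of the other 22206, 19572 had 1 gene symbol, 0 several and 2634 none. They covered 19505 genes, and the probe set with the highest mean was taken for the 55 genes with several. Genes whose mean over the 20 arrays was at or below the background of 4.49 were left out (8821), which left 10684. An array holds no read depth; the 5 mice per group limit the precision.

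A linear model of the 4 group means (limma 3.58.1 in R 4.3.3; residual degrees of freedom 16, prior 5.44) gave two-sided tests, adjusted over the 10684 genes. Mice are numbered by deposition order, so numbers pair no mice. On simulated data of this size, 87 of 100 genes changed by a log2 difference of 1 and 100 of 100 changed by 2 were recovered. In the same run 12 unchanged genes were called. The noise was drawn independently for each gene, so differences between mice that many genes share were not simulated. Named genes are the 12 largest rises and falls that passed (provisional names passed over), list members and markers that passed, and the 5 largest interactions. Further genes, among them list members that did not pass, were added by hand. Of the 144 named genes 92 passed. The comparison, the gene lists and the markers were chosen with earlier results of these data known, so counts over lists describe and were not tested as sets. Alternatives were other filters on dim genes, quantile normalization, median centring, means of probe sets and 2 groups alone. Others were array weights, a variance trend, and the negative-control median as a covariate. Each of the 10 filtered-air and metformin mice was also left out in turn, and no mouse given PM2.5 was.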

Additional observations from a re-analysis of the deposited data

Results flagged for a closer look

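In groups of 5 mice, 1 value stood apart from the other 4 by Dixon's criterion in 20 of 288 groups tested, where chance gives about 1 in 20. In filtered air these were a low Aacs (8.76), Angptl4 (10.93), Mid1ip1 (6.25), Per3 (6.97), Aass (15.35) and Cyp2b10 (14.82), and a high Acaca (15.19), Fgf21 (7.05), Adgre1 (9.28) and Creb3l3 (13.37). Filtered-air mouse 4 gave the values of Aacs, Mid1ip1 and Adgre1, mouse 2 those of Per3, Aass and Fgf21, mouse 5 those of Cyp2b10 and Acaca, mouse 1 that of Angptl4 and mouse 3 that of Creb3l3. With metformin they were a low Abcb11 (12.39) and Emcn (7.25) in mouse 3, a low Uqcr10 (11.70) and high Angptl8 (12.48) in mouse 4, and in mouse 1 a high Cyp3a13 (16.51), Igfbp4 (14.66) and Prkab1 (8.90) and a low Dbi (16.21), Ndufb3 (10.46) and Npc1 (9.95).

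The metformin difference changed with particles, by the interaction in limma, for 9 named genes. It was higher under PM2.5 than without for Fasn (3.32), Pnpla3 (3.19, not a measured size, since it lay below background with metformin), Angptl8 (3.02), Acly (2.82), Aacs (2.29) and Gpam (1.77), and lower for Angptl4 (-2.80), Creb3l3 (-1.07) and Nr1i2 (-1.00).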

How the results depend on the processing

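With array weights 400 genes were higher, 539 lower and 122 had an interaction; with the negative-control median as a covariate these were 83, 81 and 45. Of the 83 and 81 genes, 58 and 73 were among the 168 and 237. Keeping only genes above the 95th percentile of the negative controls, a filter chosen after seeing the data, gave 203 higher, 209 lower and 53 interactions. Leaving out 1 filtered-air or metformin mouse gave 61 to 162 higher, 94 to 279 lower and 7 to 30 interactions. No mouse given PM2.5 was left out. The other settings stayed within 1.5 times, from 128 to 229 higher and 186 to 351 lower. The cause of these shifts was not tested. Of 92 named genes that passed, 49 passed without each filtered-air and metformin mouse in turn and 57 with the covariate. Of these 92, 0 changed sign under any setting run. Some named genes that did not pass changed sign, such as Prkaa1 with the covariate. No paired analysis was possible because the labels give no replicate numbers. Signals below background limit Pnpla3, Npas2 and Usp2 to bounds.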
